A study of Mus musculus with 10 samples.

Results

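Glucose uptake, glycolysis, lactate release and the gate to mitochondrial pyruvate oxidation were followed through 36 named genes in sorted mouse mammary epithelial cells. The genes were chosen by name, with earlier results of these data known. They are 6 glucose transporters, 3 hexokinases, 7 genes of upper glycolysis, 6 of lower glycolysis, 4 of lactate production and export, 4 Pfkfb regulators, 4 Pdk regulators and 2 subunits of pyruvate dehydrogenase. All 36 were among the 26312 genes of the deposited table. Of them 34 reached a mean of at least 10 normalized read counts over the 10 libraries, the minimum for a test, as did 15180 genes in all. Slc2a6, at 0 to 3 normalized counts, and Hk3, at 0 to 2, stayed below it.

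The libraries came from C57BL/6J mice aged 12 weeks. From their 4th mammary glands 50000 cells were sorted as high in EpCAM, positive or low for CD49f, positive for Sca-1 and negative for CD49b. Mice with the genotype RSK2(+/+) are called WT here and mice with RSK2(-/-) KO, and RSK2 is a kinase downstream of ERK that the X-linked gene Rps6ka3 encodes. Estrus was covered by 3 libraries of each genotype and diestrus by 2 of each. The labels name no other allele or treatment, and they do not say how the allele was made, which cells lose RSK2, or whether a library is 1 mouse or a pool. P-values therefore measure the spread between libraries. Titles of KO libraries hold "WT" as well, so groups follow the genotype entry. Rps6ka3 had 156 to 165 normalized counts in the KO libraries and 128 to 165 in the WT libraries. It was not lower in KO, and because its count covers the whole gene it does not check the labels.

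Cells take up glucose through transporters of the Slc2a family, trap it with hexokinase and split it over the steps of glycolysis into pyruvate. Pyruvate then either becomes lactate, which monocarboxylate transporters export, or enters mitochondria through pyruvate dehydrogenase, which Pdk kinases switch off. Pfkfb enzymes set the level of fructose 2,6-bisphosphate, the strongest activator of phosphofructokinase. Many of these genes are targets of the hypoxia-inducible factor HIF-1, a dimer of Hif1a and Arnt. In the mammary gland glucose is also the precursor of lactose, and its uptake rises with lactation.

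Totals ran from 14108057 to 15307238 normalized counts per library, and 20831 to 22122 genes were above 0. All 9 markers of hormone-sensing luminal cells were present, among them Esr1 at 1468 to 3334, Pgr at 748 to 1688 and Prlr at 26088 to 48303 normalized counts. Short transcripts were higher in the KO estrus libraries: per doubling of exon length, the log2 level changed by -0.104, -0.0276 and -0.0614 in KO estrus 1, 2 and 3, against -0.0188 to 0.0506 in the other 7 libraries. The KO diestrus libraries had the steepest slope in the other direction, 0.0506 and 0.0483. Among the lists of markers for other cells, the summed macrophage and neutrophil genes had 584 to 770 counts in KO estrus, 324 to 604 in WT estrus, 585 to 635 in WT diestrus and 443 to 451 in KO diestrus. Of the 8 genes of this list in the data, Ptprc, S100a8 and Adgre1 had at most 6 counts in any library. The other genes of the list, Csf1r among them, held nearly all of these sums. Summed fibroblast markers, mostly Dcn, had 654 to 1610 counts in WT estrus, 107 to 3101 in KO estrus, 580 to 648 in WT diestrus and 94 to 117 in KO diestrus. The erythroid sums were 38 to 271, 94 to 244, 49 to 93 and 209 to 299 in the same order. In bulk RNA of this kind, fewer cells of a type and less RNA per cell cannot be told apart.

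Pkm, Aldoa, Gapdh and Ldha had the highest levels of the set. Per kilobase of merged exons, the mean over all libraries was 3991 normalized counts for Pkm (pyruvate kinase), 3831 for Aldoa (aldolase), 3469 for Gapdh and 3464 for Ldha (lactate dehydrogenase A). These 4 levels lay closer together than each of them varied between libraries. Tpi1, Pgam1, Eno1 and Pgk1 followed at 2498 to 1134 counts per kilobase. In most steps 1 isozyme held nearly all of the length-scaled counts. Slc2a1 (GLUT1) made up 85.1% to 93.3% of the 6 transporters, Aldoa 86.7% to 92.9% of the aldolases, and Ldha at least 99.2% of the lactate dehydrogenases. Hk2 made up 56.1% to 65.5% of the hexokinases and Hk1 nearly all the rest. Pfkl, the liver-type phosphofructokinase, held 66.3% to 83.5%, Pfkfb3 72.0% to 86.0% of the Pfkfb genes, and Pdk4 63.3% to 80.4% of the Pdk genes. The monocarboxylate transporter Slc16a1 (MCT1) had 169 counts per kilobase and Slc16a3 (MCT4) 4.27.

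**Figure D1:**
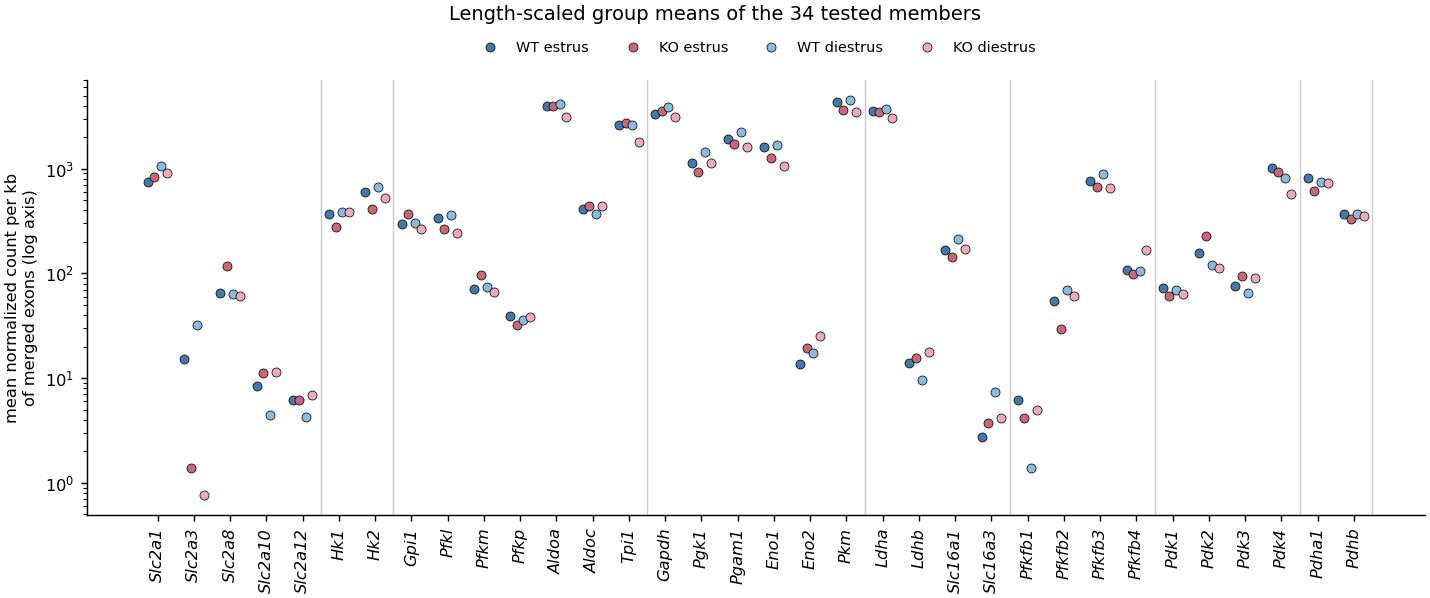
Mean normalized count per kilobase of merged exons (log axis) of the 34 tested genes in the 4 groups (points; grey lines separate the roles, from glucose transporters on the left to pyruvate dehydrogenase subunits on the right). Pkm, Aldoa, Gapdh and Ldha lie highest, and Slc2a3 shows the widest gap between genotypes.

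Promoter windows are shown for Pfkfb2, Slc2a8 and Pdk2, which kept a call between the stages in KO under all 10 alternatives that leave out no library. Each run is the 250 bases before the RefSeq transcription start (GRCm38.p6), 5′ to 3′ on the gene's own strand, which is the minus strand in all 3. Capitals mark the letters that were searched on both strands: ACGTG and GCGTG, cores of the hypoxia response element, and CACGTG, the E-box, which holds ACGTG on each strand. CACGC is GCGTG read on the other strand. The Pfkfb2 run lies at chr1:130716049-130716298, that of Slc2a8 at chr2:32982084-32982333 and that of Pdk2 at chr11:95041372-95041621.
Pfkfb2: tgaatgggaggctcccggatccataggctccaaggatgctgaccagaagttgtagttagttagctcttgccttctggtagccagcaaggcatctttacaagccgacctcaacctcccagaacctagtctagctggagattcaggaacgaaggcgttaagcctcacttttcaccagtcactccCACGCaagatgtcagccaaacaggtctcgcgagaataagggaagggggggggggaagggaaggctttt
Slc2a8: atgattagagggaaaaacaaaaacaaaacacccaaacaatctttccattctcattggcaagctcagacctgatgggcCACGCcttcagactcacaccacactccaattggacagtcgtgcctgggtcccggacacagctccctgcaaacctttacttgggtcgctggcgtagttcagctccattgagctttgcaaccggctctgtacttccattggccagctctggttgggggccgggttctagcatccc
Pdk2: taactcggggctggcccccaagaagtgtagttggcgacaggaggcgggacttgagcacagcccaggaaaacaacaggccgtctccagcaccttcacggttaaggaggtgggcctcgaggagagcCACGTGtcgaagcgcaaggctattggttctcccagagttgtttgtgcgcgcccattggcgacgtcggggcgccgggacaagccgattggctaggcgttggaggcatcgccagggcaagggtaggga
Of the 36 genes 35 had a RefSeq window of 300 bases (250 before to 50 after the start), all but Slc2a3. ACGTG was present in 16 of the 35 (45.7%), in 20.5% of all 20594 windows and in 25.8% of the 10192 windows of tested genes. GCGTG was present in 20 (57.1%), against 36.5% and 52.1%. CACGTG was present in 4 (11.4%), namely Ldha, Pdk2, Pfkm and Slc16a1, against 7.66% and 10.2%. These are matches of letters, not measured binding sites.

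Slc2a3 (GLUT3), a high-affinity glucose transporter best known from neurons, platelets and leukocytes, was lower in every KO library than in any WT library. It had 97, 177 and 59 normalized counts in WT estrus 1, 2 and 3, and 6, 19 and 5 in KO estrus 1, 2 and 3. At diestrus it had 65 and 401 counts in WT 1 and 2, and 10 and 1 in KO 1 and 2. The WT libraries varied widely, yet the lowest of them stood above the highest KO library, a separation that 1.15% of all tested genes showed in this direction. The log2 difference, KO minus WT on the scale log2(count + 1), was -3.43 ± 0.77 at estrus (SE; limma, adjusted p = 0.0383), -5.12 ± 0.95 at diestrus (adjusted p = 0.128) and -4.27 ± 0.61 averaged over both stages (adjusted p = 0.0172). The genotype differences of the 2 stages were not shown to differ (interaction 1.69 ± 1.22, adjusted p = 0.544). The averaged call was lost without WT diestrus 2 or KO diestrus 2, where the adjusted p rose to at most 0.112. The estrus call was kept in 3 of 10 fits with 1 library left out, with differences from -3.97 to -3.02. It was lost without WT estrus 1, 2 or 3, KO estrus 1 or 3, or either KO diestrus library, with adjusted p of at most 0.114. Slc2a3 (chromosome 6, 122727809 to 122801640, GRCm38) made up at most 4.46% of the length-scaled transporter counts in any library. Of the 5 tested macrophage and neutrophil markers, 4 had a difference above 0 at estrus (KO minus WT, median 0.622). At diestrus 4 lay below 0 (median -0.629, lowest -2.65), the direction of Slc2a3, and none was called at either stage (limma; 1 at an unadjusted p under 0.05 at each). The most abundant, Csf1r, had 192 to 278 counts in WT and 187 to 236 in KO libraries. The part of other cells in the Slc2a3 difference was not tested.

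Slc2a8 (GLUT8), a transporter that sits mainly on internal membranes, was higher in the KO estrus libraries than in any other library. Normalized counts were 419, 361 and 346 in KO estrus 1, 2 and 3. WT estrus 1, 2 and 3 had 224, 236 and 161. Diestrus libraries had 240 and 171 counts in WT and 227 and 165 in KO. The diestrus libraries of both genotypes thus overlapped with WT estrus and lay below KO estrus. The difference was 0.87 ± 0.21 at estrus (adjusted p = 0.0426) and -0.07 ± 0.26 at diestrus (adjusted p = 0.996). Within KO, estrus minus diestrus was 0.95 ± 0.23 (adjusted p = 0.0207), which shares the KO estrus libraries with the genotype comparison. The interaction did not pass the test (0.94 ± 0.33, adjusted p = 0.272), so the genotype differences at estrus and at diestrus were not shown to differ. The estrus call was kept only without WT estrus 1 or without KO estrus 3 and lost in the other 8 fits, with differences from 0.70 to 0.97 and adjusted p of at most 0.125. The stage call within KO was lost without KO estrus 1 or either of the KO diestrus libraries (adjusted p at most 0.215). Slc2a8 (chromosome 2, 32972990 to 32982083) rose to 11.3% to 13.3% of the length-scaled transporter counts in KO estrus, from 4.30% to 8.26% in the other libraries.

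Slc2a1, the transporter with the highest level, had 2623, 3103 and 2168 normalized counts in WT estrus and 2933, 2987 and 2815 in KO estrus. It had 3561 and 3931 in WT diestrus and 3107 and 3303 in KO diestrus. The WT diestrus libraries were the highest and those of estrus overlapped between genotypes. Neither the estrus difference (0.16 ± 0.14, adjusted p = 0.511) nor the diestrus difference (-0.22 ± 0.18, adjusted p = 0.962) passed. Slc2a10 and Slc2a12 stayed at 4 to 57 counts and passed no test. At estrus 1 of the 5 tested transporters rose and 1 fell, and the other 3 did not pass, where 4.2% of all tested genes were called.

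**Figure D2:**
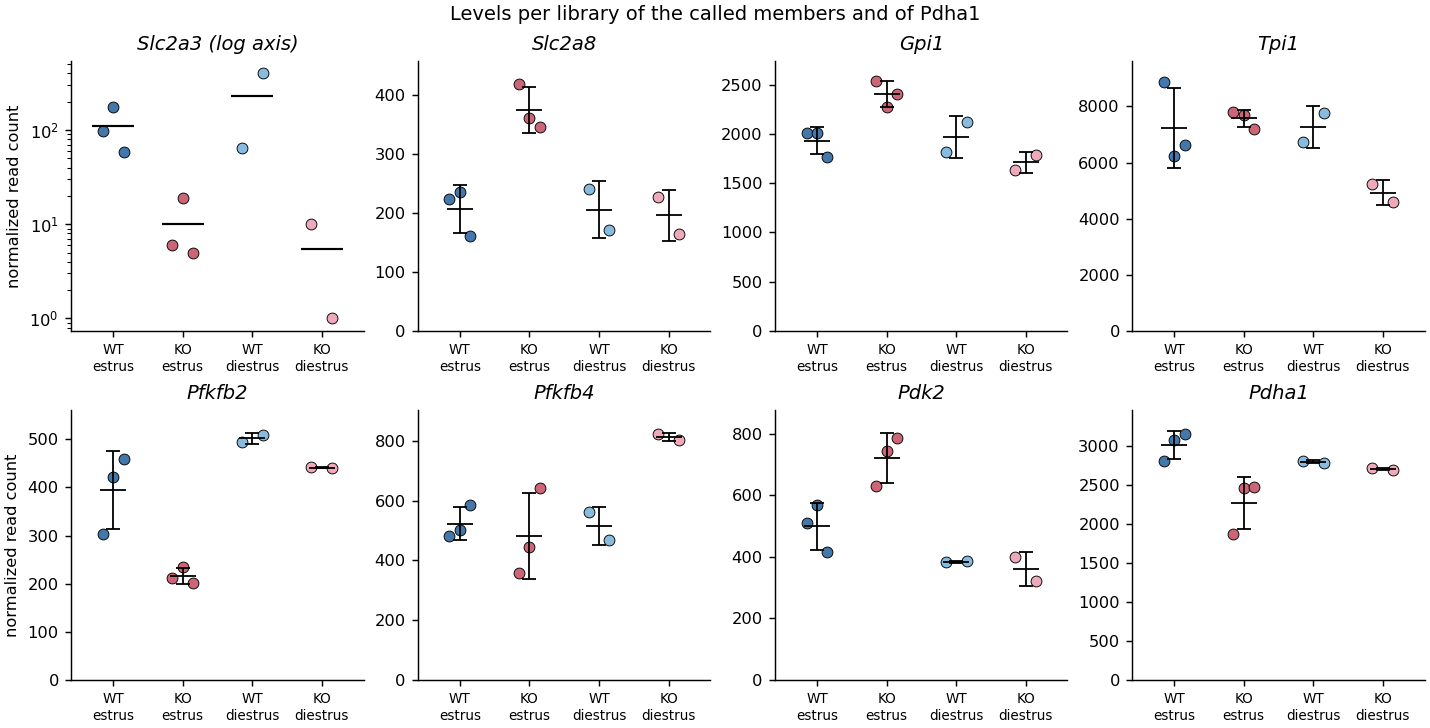
Normalized read count per library (points) in the 4 groups for the 7 genes of the set that passed a test in some comparison, and for Pdha1. Bars are mean and SD (Slc2a3: mean only, log axis). Slc2a3 lies at 1 to 19 in the KO and 59 to 401 in the WT libraries, and Slc2a8, Pfkfb2 and Pdk2 have KO estrus libraries apart from all others.

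The hexokinases Hk1 and Hk2, which phosphorylate glucose to hold it in the cell, did not pass the test in any comparison. Hk2 had 3553, 4154 and 2921 normalized counts in WT estrus and 2295, 2373 and 2717 in KO estrus. At diestrus it had 3552 and 4502 in WT and 2916 and 3411 in KO. The KO libraries lay below the WT libraries of the same stage at both stages, without overlap. The estrus difference was -0.51 ± 0.16 (adjusted p = 0.0766, 95% confidence interval -0.86 to -0.16) and that of diestrus -0.34 ± 0.20 (adjusted p = 0.909). Hk1 had 3612, 3237 and 2521 counts in WT estrus and 1808, 2642 and 2648 in KO estrus, which overlapped (-0.41 ± 0.18, adjusted p = 0.172).

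Among the 13 tested genes from glucose-6-phosphate isomerase to pyruvate kinase, none was called between genotypes at estrus by limma (background 4.2%), and 2 had an unadjusted p under 0.05 (background 25.8%). The levels of the main enzymes were close. Aldoa, for example, had 15282, 9804 and 9509 normalized counts in WT estrus and 12794, 10643 and 11163 in KO estrus (0.03 ± 0.20, adjusted p = 0.938). Pkm, which makes pyruvate, had 25269, 20849 and 18509 in WT and 14878, 17556 and 21723 in KO estrus (-0.26 ± 0.19, adjusted p = 0.416). The 95% confidence interval of the estrus difference was -0.27 to 0.51 for Gapdh, -0.67 to 0.15 for Pkm and -0.41 to 0.38 for Ldha. Differences within these bounds are compatible with the data, and the bounds do not give the smallest change that would have been called. Pfkm, the muscle-type phosphofructokinase, had the largest estrus difference of upper glycolysis, 0.44 ± 0.20 (adjusted p = 0.182), followed by Gpi1 at 0.32 ± 0.12 and Pfkl at -0.32 ± 0.21. The share of Pfkm among the length-scaled phosphofructokinase counts was 23.0% to 26.0% in KO estrus and 10.1% to 20.4% in the other libraries. Merged exons of Pfkm are shorter (3340 bases) than those of Pfkl (6675) and Pfkp (13401), and short transcripts were higher in KO estrus. The part of that length trend in the share was not tested. In lower glycolysis Eno2, the neuronal enolase, had 73, 58 and 61 counts in WT and 90, 74 and 111 in KO estrus (0.50 ± 0.26, adjusted p = 0.25). Eno1, the main enolase, had 12066, 6340 and 7560 in WT and 6757, 6804 and 6924 in KO estrus (-0.29 ± 0.21, adjusted p = 0.43). The remaining enzymes passed no test in any comparison. Pfkp, the platelet-type phosphofructokinase, ranged over the 10 libraries from 351 to 605 normalized counts, the second aldolase Aldoc from 1174 to 1916, Pgk1 from 1893 to 3788 and Pgam1 from 3130 to 4724.

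Gpi1, the isomerase at the second step, and Tpi1, which interconverts the triose phosphates, were the glycolytic enzymes that passed a test. Gpi1 had 2540, 2276 and 2403 normalized counts in KO estrus and 1637 and 1785 in KO diestrus. In WT it had 2013, 2008 and 1771 at estrus and 1821 and 2124 at diestrus. The KO libraries of the 2 stages stood apart, and the WT libraries lay between them, except WT estrus 3, which fell within the KO diestrus range. Estrus minus diestrus was 0.49 ± 0.14 within KO (adjusted p = 0.0343), and the interaction was 0.52 ± 0.20 (adjusted p = 0.289). Tpi1 had 7796, 7708 and 7214 counts in KO estrus against 5233 and 4606 in KO diestrus, the lowest of all 10 libraries. In WT it had 8857, 6224 and 6624 at estrus and 6723 and 7785 at diestrus. Its difference between the stages within KO was 0.62 ± 0.18 (adjusted p = 0.0342), and the interaction was 0.64 ± 0.25 (adjusted p = 0.297). Both calls were lost without KO estrus 1 or either of the KO diestrus libraries, and that of Tpi1 also without KO estrus 2 or WT diestrus 1, with adjusted p of at most 0.192 for Gpi1 and 0.25 for Tpi1. Tpi1 was also lost without the filter, with a spread without trend and with each library's trend on transcript length removed (adjusted p at most 0.067).

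At diestrus many enzymes of the pathway had lower values in both KO libraries than in both WT libraries, but none was called. Of the 34 tested genes 19 (55.9%) lay lower without overlap, against 21.6% of all tested genes, and 6 lay higher, against 21.4%. The 19 included Hk2, Gpi1, Pfkl, Aldoa, Tpi1, Gapdh, Pgk1, Pgam1, Eno1, Pkm and Ldha, and they were read from the same 4 libraries. The median difference of the 34 genes was -0.194, against -0.004 over all tested genes. An unadjusted p under 0.05 was found for 8 of the 34 (limma), and for 5.92% of all tested genes. Of these 8, Slc2a3, Pfkl, Tpi1, Pgam1 and Eno1 were lower in KO, and Slc2a10, Pfkfb1 and Pfkfb4 were higher. The largest differences of the main chain were Eno1 at -0.66 ± 0.26 (adjusted p = 0.756) and Pfkl at -0.59 ± 0.26 (adjusted p = 0.808). The summed counts of Gpi1, Aldoa, Tpi1, Gapdh, Pgk1, Pgam1, Eno1, Pkm and Ldha were 79868 and 98318 in WT diestrus and 70333 and 65166 in KO diestrus. At estrus they were 104062, 74130 and 70569 in WT and 78272, 75419 and 80787 in KO. Thus WT estrus 1 and WT diestrus 2 were the highest libraries of all, at 0.682% and 0.642% of the normalized counts, and the other 8 held 0.455% to 0.563%. Without WT diestrus 2 the median difference at diestrus was -0.102, and without WT diestrus 1 it was -0.273. At estrus the median was -0.134, and it was 0.015 without WT estrus 1. In the same diestrus libraries the summed fibroblast markers were lower in KO (94 to 117 counts) than in WT (580 to 648) and the erythroid markers higher (209 to 299 and 49 to 93), and their part in these differences was not tested.

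**Figure D3:**
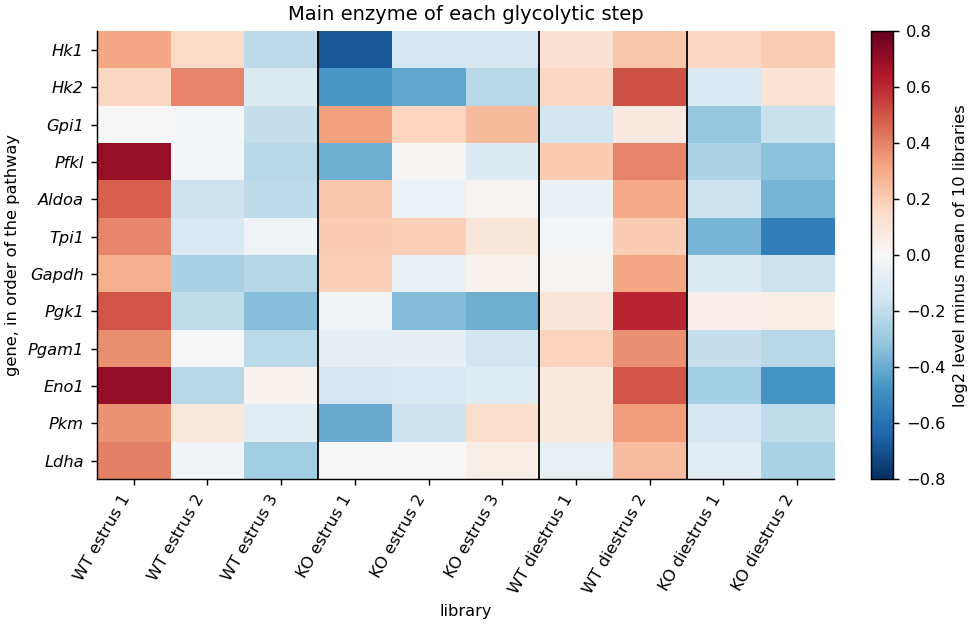
Log2 level of the main enzyme of each glycolytic step in each library, relative to the gene's mean over the 10 libraries (colour; rows in the order of the pathway, black lines between groups). WT estrus 1 and WT diestrus 2 are high for most of the chain, and the KO diestrus libraries are low for Tpi1, Eno1 and Pfkl.

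Several glycolytic genes have processed copies that the table lists apart. Eno1b had 582 to 1273 normalized counts, Pgam1-ps2 749 to 1207 and Pgk1-rs7 234 to 507. The counts of Eno1, Pgam1 and Pgk1 are uncertain to that extent, because reads could be split between them. The copies of Gapdh, Tpi1, Ldha and Aldoa in the table had at most 39 counts. Whether the counting used strand is not given in the sources used here. On the opposite strand, exons of Gpi1 share 741 bases with Gm26762, at 393 to 506 counts, and those of Tpi1 share 34 bases with Spsb2, at 141 to 295. On the same strand, exons of Pkm share 767 bases with Gm49759, at 3642 to 6240 counts. Reads there cannot be assigned to either gene.

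Lactate genes did not pass a test in any comparison. Ldha, which turns pyruvate into lactate, had 15031, 11202 and 9356 normalized counts in WT estrus and 11384, 11360 and 11726 in KO estrus (-0.02 ± 0.18, adjusted p = 0.963). The KO libraries lay inside the range of the WT libraries. At diestrus Ldha had 10892 and 13480 counts in WT and 10688 and 9526 in KO. The exporter Slc16a1 had 827, 1059 and 318 in WT estrus and 517, 895 and 473 in KO estrus (-0.12 ± 0.37, adjusted p = 0.874), a wide spread in both genotypes. Slc16a3 had 9 to 24 counts at estrus and 40, 39, 25 and 19 in WT diestrus 1, WT diestrus 2, KO diestrus 1 and KO diestrus 2. Ldhb, the lactate dehydrogenase of heart, had 13 to 38 counts. For Slc16a3 the WT diestrus libraries were the highest (estrus minus diestrus in WT -1.43 ± 0.41, adjusted p = 1).

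Pfkfb2, whose carboxy-terminal end is phosphorylated by kinases such as Akt and RSK, was lower in the KO estrus libraries than in any other library. It had 303, 421 and 459 normalized counts in WT estrus 1, 2 and 3, and 211, 234 and 202 in KO estrus 1, 2 and 3. WT diestrus had 494 and 510, and KO diestrus 442 and 440. The order of the groups was KO estrus, then WT estrus, which overlapped with KO diestrus, and then WT diestrus. The KO minus WT difference was -0.85 ± 0.17 at estrus (adjusted p = 0.0297) and -0.19 ± 0.21 at diestrus (adjusted p = 0.996), and the interaction was -0.66 ± 0.27 (adjusted p = 0.311). Estrus minus diestrus was -1.03 ± 0.19 in KO (adjusted p = 0.00801) and -0.37 ± 0.19 in WT (adjusted p = 1). The stage call in KO was lost without KO diestrus 1 or KO diestrus 2 (adjusted p at most 0.0999). The estrus genotype call was kept without WT estrus 1, KO estrus 2 or KO estrus 3 and lost in the other 7 fits, with differences from -1.03 to -0.73 and adjusted p of at most 0.0881. Pfkfb2 (chromosome 1, 130689182 to 130729253) shares 1262 exon bases with Gm29427 on the same strand, so that reads there cannot be assigned to either. Gm29427 had 109, 165 and 184 counts in WT estrus, 54, 89 and 61 in KO estrus, 222 and 195 in WT diestrus and 154 and 145 in KO diestrus. Its KO estrus libraries were also the lowest of the 4 groups.

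Pfkfb4, a member of the family induced in hypoxia, was highest in the KO diestrus libraries. It had 823 and 804 normalized counts there, against 358, 445 and 641 in KO estrus. In WT it had 482, 502 and 585 at estrus and 560 and 469 at diestrus. Estrus minus diestrus in KO was -0.80 ± 0.22 (adjusted p = 0.0305), and the KO minus WT difference at diestrus was 0.67 ± 0.24 (adjusted p = 0.677). The stage call was lost without KO estrus 1 or 2 or either of the KO diestrus libraries, with adjusted p of at most 0.18. Pfkfb4 made up 17.8% to 20.1% of the length-scaled Pfkfb counts in KO diestrus. Pfkfb3, the main member of the family, had 6402, 6036 and 4774 counts in WT estrus and 4426, 5773 and 5072 in KO estrus. The 2 groups overlapped (-0.17 ± 0.18, adjusted p = 0.586). Pfkfb1 had 5 and 6 counts in WT diestrus and 11 to 32 in the other libraries. Its differences of 1.69 ± 0.49 between genotypes at diestrus (adjusted p = 0.433) and 1.95 ± 0.45 between stages in WT (adjusted p = 0.528) did not pass. At estrus 1 of the 4 Pfkfb genes fell and 3 did not pass, where 2.94% of all tested genes were called lower. All 4 differences were below 0, as were those of 7740 of the 15180 tested genes.

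Pdk2, a kinase that inhibits pyruvate dehydrogenase, was highest in the KO estrus libraries. It had 630, 744 and 787 normalized counts there and 398 and 320 in KO diestrus. In WT it had 510, 569 and 415 at estrus and 381 and 386 at diestrus. The KO estrus libraries lay above all the others, and the WT estrus libraries lay above the WT diestrus libraries. Estrus minus diestrus was 1.005 ± 0.18 in KO (adjusted p = 0.00756) and 0.36 ± 0.18 in WT (adjusted p = 1), and the interaction was 0.64 ± 0.25 (adjusted p = 0.307). The stage call in KO was lost without KO diestrus 2 (adjusted p = 0.114) and kept in the other 9 fits. The genotype difference at estrus, 0.54 ± 0.16, did not pass (adjusted p = 0.0689), and it passed with quantile normalization (0.61, adjusted p = 0.047). Pdk2 made up 14.6% to 22.4% of the length-scaled Pdk counts in KO estrus and 10.2% to 13.8% in WT estrus. Pdk4, the main Pdk and a gene induced by fasting and glucocorticoids, had 4474, 3956 and 2380 counts in WT estrus and 3659, 3636 and 2467 in KO estrus. The diestrus values were 2079 and 3688 in WT and 1734 and 2265 in KO. Its groups overlapped at each stage (estrus -0.12 ± 0.27, adjusted p = 0.818). Pdk3 had an estrus difference of 0.32 ± 0.19 (adjusted p = 0.319) and Pdk1 one of -0.28 ± 0.16 (adjusted p = 0.293), at 152 to 288 and 406 to 609 counts over all libraries.

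Pdha1, the catalytic alpha subunit of pyruvate dehydrogenase, was lower in every KO library than in any WT library, by a small margin. It had 2808, 3077 and 3157 normalized counts in WT estrus and 1876, 2459 and 2467 in KO estrus. The diestrus libraries had 2810 and 2787 in WT and 2711 and 2691 in KO. Slc2a3 and Pdha1 were the 2 genes of the set that lay lower in all KO than in all WT libraries (5.88%, background 1.15%). None lay higher in all KO libraries (background 1.05%). Pdha1 did not pass the test at estrus (-0.42 ± 0.14, adjusted p = 0.0827), at diestrus (-0.05 ± 0.17, adjusted p = 0.996) or averaged (-0.24 ± 0.11, adjusted p = 0.336). Pdhb, the beta subunit, had 1524, 1320 and 1401 counts in WT estrus and 1109, 1215 and 1481 in KO estrus, which overlapped (-0.17 ± 0.13, adjusted p = 0.47). Pdha1 lies on the X chromosome (160122209 to 160138413), 754 kb from Rps6ka3, the gene targeted in the KO. The other X-linked genes of the set lie farther away: Pfkfb1 (150588229 to 150643878) at 8.57 Mb, Pgk1 (106187100 to 106203699) at 53.0 Mb and Pdk3 (93764607 to 93832201) at 65.4 Mb. Exons of Pdha1 share 603 bases with Map3k15 on the opposite strand, which had 979 to 1363 counts.

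Over the whole set, the number of calls was small in each comparison. At estrus 3 of the 34 tested genes passed between genotypes, Slc2a8 higher and Slc2a3 and Pfkfb2 lower, which is 8.82%, where 4.2% of all tested genes were called. Those higher were 1.26% and those lower 2.94% of all tested genes. At diestrus 0 of 34 passed (limma, 8 at an unadjusted p under 0.05), where 0.0395% of all tested genes were called and 5.92% had such a p. Averaged over the stages only Slc2a3 passed, where 0.665% of all tested genes were called, and 11 of the set had an unadjusted p under 0.05 (background 14.7%). Between estrus and diestrus in WT 0 passed (limma, 3 at an unadjusted p under 0.05), and 0% of all tested genes did, with 3.87% at such a p. In KO 6 passed between the stages (17.6%), Slc2a8, Gpi1, Tpi1 and Pdk2 higher at estrus and Pfkfb2 and Pfkfb4 lower, where 16.6% of all tested genes were called, 7.67% higher and 8.95% lower. The share of called genes in the set was thus close to the background in KO between the stages. The interaction called 0 of 34 (limma, 8 at an unadjusted p under 0.05) and 0% of all tested genes (14.2% at such a p). The genotype comparison at estrus and the stage comparison in KO share the KO estrus libraries. The estrus calls of Slc2a3, Slc2a8 and Pfkfb2 were lost under 4 alternatives: no filter on low values, removal of each library's trend on transcript length, a spread without trend, and a fit of the 6 estrus libraries alone. Their adjusted p was then at most 0.0861, 0.108 and 0.109, and the differences ran from -3.55 to -2.94, from 0.84 to 0.92 and from -0.85 to -0.68 over these and the other alternatives with all libraries. The stage calls of Gpi1 and Pfkfb4 were lost without the filter, with a spread without trend and in the KO libraries alone (adjusted p at most 0.0665 and 0.0628). Of the set, 9 genes at estrus (background 25.8%) and 9 between the stages in KO (background 33.8%) had an unadjusted p under 0.05. At estrus 4 genes lay higher without overlap in KO (background 12.9%) and 4 lower (background 13.1%). Hk2, Pfkfb2, Pdha1 and Slc2a3 were lower in KO without overlap at both stages, as were 2.96% of all tested genes. Gpi1 was higher in KO at estrus and lower at diestrus, each time without overlap, as were 2.71%. Between the stages 11 genes lay higher at estrus without overlap in KO (background 25%) and 7 lower (background 26%). In WT 4 lay higher (background 8.72%) and 3 lower (background 8.99%).

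**Figure D4:**
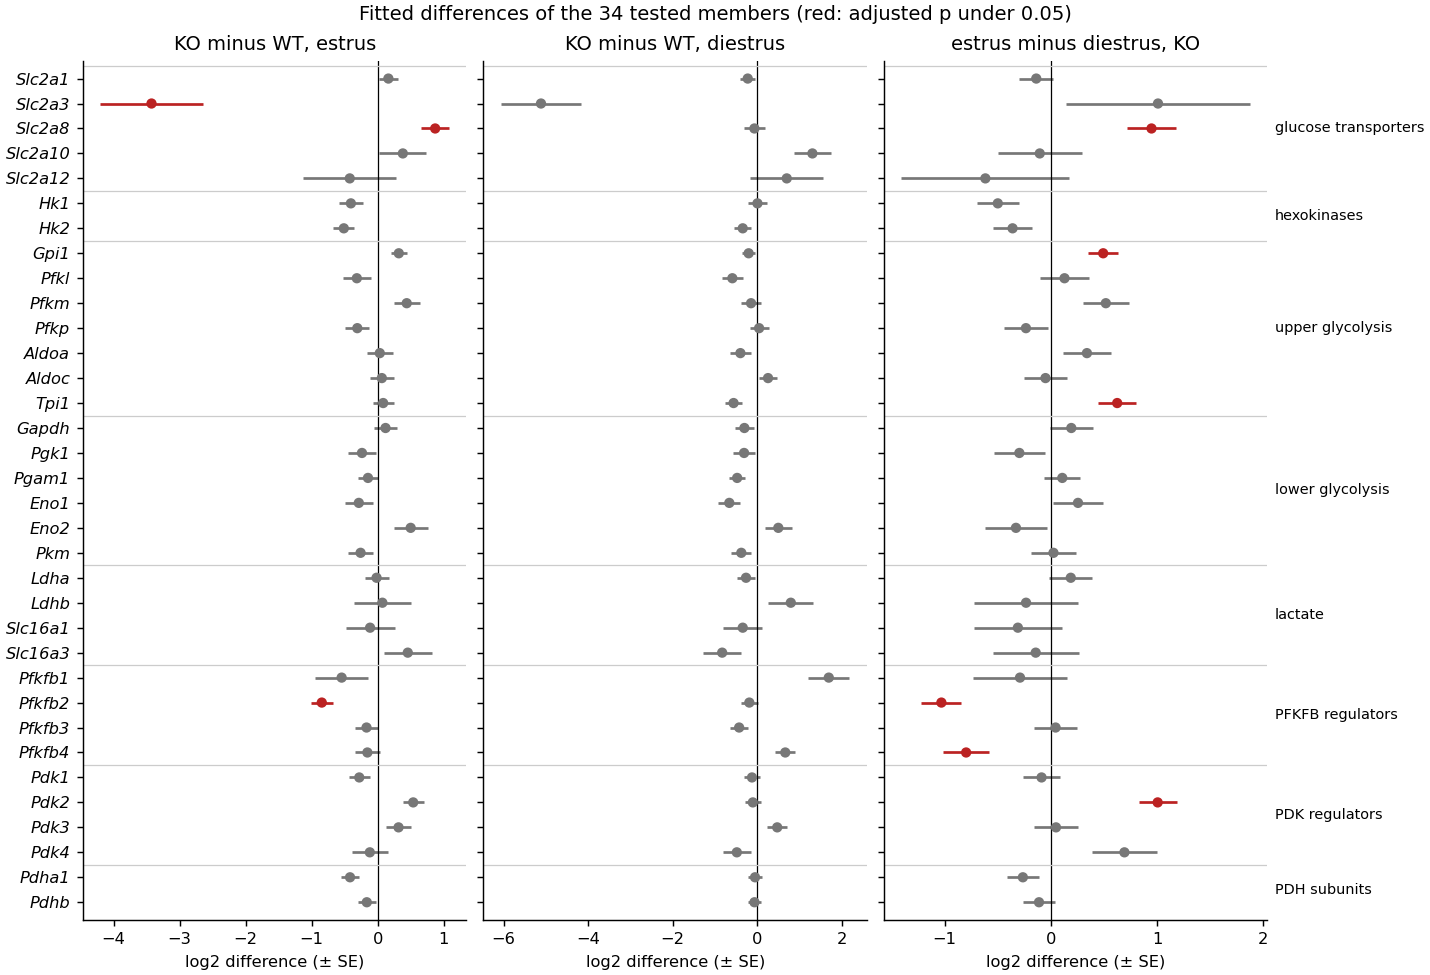
Fitted log2 difference with its SE for the 34 tested genes, grouped by role, between KO and WT at estrus and diestrus and between estrus and diestrus in KO (red: adjusted p under 0.05). Slc2a3 has the largest differences between genotypes, and the genes from Hk1 to Pkm lie between -0.66 and 0.62 in these comparisons; the 3 horizontal axes differ in range.

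The 6 lists of neighbouring pathways held few calls between genotypes. Of all tested genes, 4.2% were called between genotypes at estrus, 0.665% averaged over the stages and 16.6% between the stages in KO. Of 9 other tested transporters and isozymes, 0 were called in any comparison (limma; at an unadjusted p under 0.05, 1 between genotypes at estrus and 3 between the stages in KO). Of 9 pentose phosphate genes 2 fell at estrus, where 2.94% of all tested genes were called lower. G6pdx, the entry enzyme of the pathway, had 5412, 5150 and 5775 normalized counts in WT estrus and 2735, 3367 and 3368 in KO estrus. At diestrus it had 5115 and 6667 in WT and 4036 and 4054 in KO. Every KO library thus lay below every WT library, as for 1.15% of all tested genes. Its difference was -0.79 ± 0.14 at estrus (adjusted p = 0.0233) and -0.66 ± 0.11 averaged (adjusted p = 0.0346). The averaged call was lost without WT estrus 2 or 3 or any of the 4 diestrus libraries (adjusted p at most 0.234). H6pd, which runs the same reaction in the endoplasmic reticulum, fell by 0.69 ± 0.17 at estrus on the log2 scale (adjusted p = 0.0439). In KO Pgls rose at estrus against diestrus (0.82 ± 0.18, adjusted p = 0.0132). Of 14 glycogen genes Phka1, a subunit of phosphorylase kinase, fell at estrus (-0.996 ± 0.18, adjusted p = 0.0223). Between the stages in KO Phka1 and Pgm2 were lower and Gyg higher at estrus. Of 13 genes of pyruvate entry and gluconeogenesis 0 were called between genotypes at estrus (limma; 3 at an unadjusted p under 0.05). In KO Dld was lower (-0.73 ± 0.16, adjusted p = 0.0136) and Pck2 higher (0.48 ± 0.13, adjusted p = 0.0265) at estrus than at diestrus.

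Of 16 regulators of glycolytic genes 5 passed between the stages in KO, where 16.6% of all tested genes were called, and 1 passed between genotypes at estrus, where 4.2% were. Arnt, the partner of Hif1a, had 504, 585 and 528 normalized counts in WT estrus and 276, 367 and 355 in KO estrus. At diestrus it had 581 and 682 in WT and 650 and 628 in KO. The KO estrus libraries were the lowest, both against WT (-0.70 ± 0.15, adjusted p = 0.0348) and against KO diestrus (-0.95 ± 0.17, adjusted p = 0.00728). Hif1an and Vhl were lower at estrus in KO as well (-0.88 ± 0.16, adjusted p = 0.00809, and -0.61 ± 0.15, adjusted p = 0.0203). Egln3, an oxygen-sensing hydroxylase, was higher (1.33 ± 0.31, adjusted p = 0.0177). The fifth call, Hif1a itself, is outside the limit of 4 per list and was named after its value was seen (-1.08 ± 0.29, adjusted p = 0.0271). Hif1a had 4116, 7731 and 7313 counts in KO estrus and 10937 and 15444 in KO diestrus, against 9286, 12226 and 7530 in WT estrus and 13576 and 15414 in WT diestrus. Its estrus libraries overlapped between genotypes.

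Of 12 tested genes that hypoxia induces outside glycolysis, P4ha2 was called between genotypes at estrus, where 4.2% of all tested genes were called. P4ha2 and Bnip3 were called averaged over both stages, where 0.665% of all tested genes were. P4ha2, a collagen prolyl hydroxylase, had 1334, 839 and 2170 normalized counts in WT estrus, 1384 and 2318 in WT diestrus, 456, 559 and 172 in KO estrus and 302 and 231 in KO diestrus. All KO libraries lay below all WT libraries (background 1.15%), with a difference of -2.34 ± 0.33 averaged (adjusted p = 0.0172). Bnip3, a mitophagy receptor, had 1044 to 1510 counts in WT and 549 to 951 in KO libraries (-0.74 ± 0.14 averaged, adjusted p = 0.0457). In KO Vegfa (-1.04 ± 0.24, adjusted p = 0.0176) and Kdm3a (-0.54 ± 0.16, adjusted p = 0.0435) were lower at estrus than at diestrus. That is 16.7% of the 12 genes, close to the 16.6% of all tested genes called in this comparison. With 1 library left out the averaged call of Bnip3 was lost in all 10 fits (adjusted p at most 0.272). That of P4ha2 was lost without WT diestrus 2 or either of the KO diestrus libraries (adjusted p at most 0.129), and its estrus call was kept only without KO estrus 2 or 3. The estrus calls of G6pdx, H6pd, Phka1 and Arnt were each lost without WT estrus 2 or 3 or KO estrus 1, and kept in 5, 2, 7 and 3 of the 10 fits (adjusted p at most 0.118). Each stage call in KO in the neighbouring lists and the markers was lost without KO diestrus 1 and without KO diestrus 2, with adjusted p of at most 0.353.

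**Figure D5:**
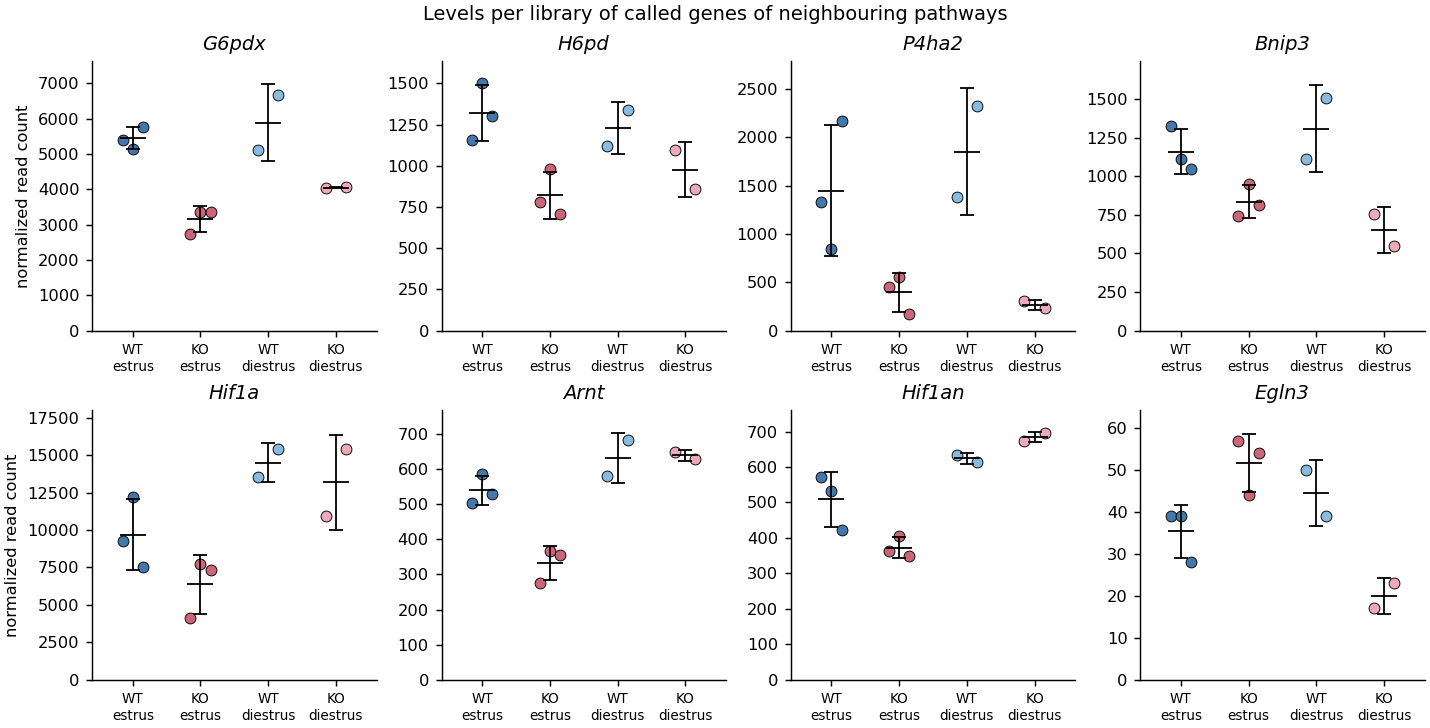
Normalized read count per library (points) in the 4 groups for 8 called genes of the neighbouring lists, with mean and SD (bars). For G6pdx, P4ha2 and Bnip3 every KO library lies below every WT library (background 1.15%), and for Arnt and Hif1an the KO estrus libraries are the lowest.

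Genes of the sort proteins and single cell markers also passed between the stages in KO, where 16.6% of all tested genes were called. Itga2 (CD49b), which the gate excludes, had 174, 96 and 57 normalized counts in KO estrus and 236 and 339 in KO diestrus (-1.51 ± 0.36, adjusted p = 0.0189). Ly6a (Sca-1) had 26930, 21549 and 27186 counts in KO estrus and 14585 and 10512 in KO diestrus (1.02 ± 0.29, adjusted p = 0.0345). Itga6 (CD49f) was lower at estrus (-0.52 ± 0.16, adjusted p = 0.0493), and Epcam did not pass. Of the 9 hormone-sensing luminal markers Prom1 was lower at estrus (-1.66 ± 0.47, adjusted p = 0.0357), and 5 lay above 0. Of the 6 tested luminal progenitor markers Cd14 was higher (0.63 ± 0.19, adjusted p = 0.0441), but 5 lay below 0 (median -0.465). Of the 5 tested macrophage and neutrophil markers Cd74 was higher (2.35 ± 0.66, adjusted p = 0.0342), but 3 lay below 0 (median -0.279). Summed luminal progenitor markers were 2702 to 3377 in KO estrus and 3222 to 3241 in KO diestrus, and basal markers 414 to 970 and 327 to 671. The fibroblast sums differed more, at 107 to 3101 and 94 to 117, with 1 KO estrus library near the KO diestrus level. Between genotypes at estrus Trbc2 was the only called marker (1.13 ± 0.22, adjusted p = 0.0276), and it was lost without WT estrus 2 or 3, KO estrus 1 or either of the KO diestrus libraries (adjusted p at most 0.0881). The part of these differences in the stage calls of Slc2a8, Gpi1, Tpi1, Pdk2, Pfkfb2 and Pfkfb4 was not tested.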

How the data were processed

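Total RNA of 10 libraries of sorted mouse mammary cells was sequenced by the submitters. Per the submitters' processing notes, STAR, HTSeq, DESeq2 and the build mm10 were used, and versions and settings are not given in the sources used here. The deposited values are a score: normalized read counts per gene that the authors rounded, and they are not divided by gene length. Ensembl identifiers were matched to GENCODE M21 (GRCm38) for symbols (26249 of 26312), positions and merged exon lengths. Of 2 identifiers named Aldoa, the one with longer exons was used.

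limma 3.58.1 (R 4.3.3) fitted 1 mean per group to log2(value + 1) of the 15180 genes with a mean of at least 10, with a trend in the spread. The 6 two-sided contrasts were KO minus WT at estrus, at diestrus and averaged, estrus minus diestrus within each genotype, and the interaction. Adjustment was by Benjamini-Hochberg over the 15180 genes, called under 0.05. The groups of 2 borrowed their spread from the others. The values are normalized, so no count model was used and the precision comes from the spread between libraries. The fit was tested on simulated data.

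The 36 genes, the lists and the tests were chosen with earlier results of these data known. Named with values were all called members, the most abundant member of each role, the 2 with the largest estrus difference, and up to 4 called genes per other list and contrast. Alternatives were pseudocounts of 0.5 and 5, no minimum or a minimum mean of 50, equal totals, quantile normalization, removal of each library's length trend (lowess, span 0.3), no trend in the spread, replicate numbers as a block, only the compared groups, and omission of each library. Promoter windows are from RefSeq (GRCm38.p6). Python 3.11.15 with matplotlib 3.10.9 drew the figures.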

Additional observations from a re-analysis of the deposited data

How the results depend on the processing

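Over 204 combinations of gene and comparison, 3982 values were recomputed under alternatives. Of these 3914 kept their side of the threshold, 65 lost a call and 3 gained one. No called value turned sign, and 120 uncalled values, counted among the 3914, did. The count at estrus, 3, fell to 0 with no filter on low values, to 0 with the length trend removed, to 0 with no trend in the spread and to 0 with the estrus libraries alone, and it was 0 to 2 with 1 library left out. The averaged count, 1, was 0 with no filter, 0 with no trend in the spread and 0 to 2 with 1 library left out, and Pfkfb2 passed without WT estrus 1 (-0.61, adjusted p = 0.0455). In KO between the stages the count of 6 became 3 with no filter, 3 with no trend in the spread and 0 to 6 with 1 library left out, with 0 without KO diestrus 2, 1 without KO diestrus 1 and 2 without KO estrus 1. Over all tested genes that comparison then called 39, 151 and 1331, against 2524, and the estrus comparison 0 to 2 of the set beside 67 to 909 genes, against 637. The estrus comparison called 89 with no filter, 227 without the length trend, 44 with no trend in the spread, 23 alone and 996 with the block. Equal totals called 271 higher and 303 lower and quantile normalization 397 and 423, against 191 and 446. Leaving out a diestrus library also lowered the estrus count, although no such library enters that difference. At diestrus, in WT between the stages and in the interaction, 0 stayed 0 in each fit with 1 library left out.

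For same-numbered libraries, r of the deviations from the group means ran from -0.132 to 0.187 over 13 pairs, with 1 above 0.1. For other numbers it ran from -0.147 to 0.132 over 24 pairs, with 3 above 0.1. In groups of 2 libraries the deviations mirror each other, so the pairs are not independent and r cannot settle the pairing. The numbers were not taken as pairing. With the replicate numbers as a block the set had 3 calls at estrus, 0 at diestrus, 1 averaged and 7 in KO between the stages, where Pdk4 was added (0.92, adjusted p = 0.0208).

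Diestrus had 2 libraries per group, and the smallest adjusted p of the set there was 0.128. Slc2a10, Slc2a12, Ldhb, Slc16a3 and Pfkfb1 had at most 57 counts in any library.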
